A study of Caenorhabditis elegans with 6 samples.

Results

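The 22G-RNAs of 2 frameshift alleles of lotr-1 were compared with those of wild-type. The libraries were chosen by genotype, with allele names as in the labels and the study's methods, and with earlier results of these data known. They are lotr-1(xf60) in strain RFK593 and lotr-1(xf61) in strain RFK594, with 1 library each, against 3 libraries of wild-type N2. These are 5 of the 6 libraries of the series, and the library of the in-frame allele xf58 was left out, other than in an alternative that is named where it is used. Both mutant alleles are CRISPR deletions on chromosome I that shift the reading frame of lotr-1 to a stop codon, and each is 1 line. All animals were synchronized as starved first-stage larvae, grown on OP50 bacteria and collected whole as gravid adults 63 hours after plating, and their small RNAs were treated with RppH before the libraries were made. Nothing in the labels says that the wild-type replicates came from separate cultures, and the mutant replicates are different alleles, so p-values measure only the spread between these libraries. In whole animals, fewer germ cells and fewer 22G-RNAs per germ cell cannot be told apart.

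22G-RNAs are short antisense RNAs that begin with G and are made by RNA-dependent RNA polymerases on a target transcript used as template. They are loaded into worm-specific Argonautes: those of the WAGO class mostly silence genes, pseudogenes and transposons, whereas those bound by CSR-1 mark genes expressed in the germline. Much of their synthesis and inheritance takes place in germ granules, perinuclear condensates that hold P granules, Mutator foci and Z granules. LOTR-1 is a germ granule protein with LOTUS and Tudor domains, kinds of domain that bind helicases and methylated Argonautes in other animals.

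The values are numbers of 22-base reads starting with G that lay antisense to an exon or a transposon. Each library held between 3787389 and 4520488 of them. Of 22336 loci in the counts, 22185 genes and 151 transposon families, 18076 had a read in these 5 libraries and 9647 had enough reads to be tested. The counts on lotr-1 itself, which lies on chromosome I from 8487618 to 8490938 of WBcel235, were 245, 293 and 275 in wild-type, 20 in xf60 and 47 in xf61. This is a fall of 2.04 on the log2 scale (SE 0.20, adjusted p 2.88e-07), but sequence that the alleles delete cannot yield reads, so the count only checks the labels.

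Loss of LOTR-1 through either allele went with a redistribution of 22G-RNAs over a large part of the measurable loci. A locus was called where the adjusted p of edgeR's quasi-likelihood test was below 0.1 and the groups differed over 2-fold, which held for 4086 of 9647 tested loci (42.4%), 1923 up (19.9%) and 2163 down (22.4%). Both frameshift libraries lay outside the range of the 3 wild-type libraries on the same side at 7429 loci (77% of those tested), above it at 3608 (37.4%) and below it at 3821 (39.6%). The changes reached far beyond the 2-fold cutoff: 819 loci rose and 842 fell by more than 4-fold, 176 rose and 114 fell by more than 16-fold, and 50 rose and 31 fell by more than 64-fold.

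The directions are relative to the typical locus. The calls rest on TMM factors, which scale libraries so that most loci do not change, and these were 1.31 to 1.33 in wild-type but 0.631 in xf60 and 0.688 in xf61. The median log2 change over all tested loci was -0.004 with these factors and -1.002 with total counts, under which each library is taken to hold the same amount of 22G-RNA. With total counts the split was 821 up (8.51% of tested loci) against 4820 down (50%), so the share of up calls moved from 47.1% to 14.6%. All 821 were also up with TMM factors, and all 2163 loci called down with TMM factors kept that call. Total counts lower nearly all log2 changes by a similar amount, so this overlap largely follows from the scaling and tests nothing. The counts carry no spike-in, and which scaling matches the amount of 22G-RNA per animal was not tested.

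The shift can also be read from the share of each library that a set of loci held. A share uses no TMM factors but is relative to the whole library, as are total counts. The 1923 loci called up held 28.0%, 27.9% and 27.4% of the 22G-RNAs in the 3 wild-type libraries, 65.7% in xf60 and 63.8% in xf61. The 2163 loci called down went from 18.3%, 18.4% and 18.97% to 2.17% and 2.36%. These sets were chosen by the same counts, so their shares describe the size of the change and test nothing. Reads were also gathered on fewer loci. The 100 most abundant loci of each library held 37.7%, 37.5% and 36.9% in wild-type, 47.3% in xf60 and 44.8% in xf61. Between 4348 and 4728 loci reached 100 counts in wild-type, but 2386 did so in xf60 and 2635 in xf61. With 3 against 2 libraries, the smallest p of an exact permutation test is 0.2, and the share of the top 100 loci reached it (two-sided, adjusted p 0.233 over 7 share measures).

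By level, the share of loci called up was highest among the most abundant loci. Of 626 loci that averaged 1000 counts or more, 301 (48.1%) were called up and 70 (11.2%) down (167 and 153 with total counts), with a median log2 change of 0.93, or -0.08 with total counts. Of 3374 loci averaging 100 to 1000 counts, 528 (15.7%) were up and 934 (27.7%) down (261 and 1898 with total counts), with a median of -0.18, or -1.18 with total counts. The mean count includes the frameshift libraries, so strong gains themselves lift a locus into the higher class. In the plot of change against level, the most abundant loci lie mostly above 0.

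**Figure D1:**
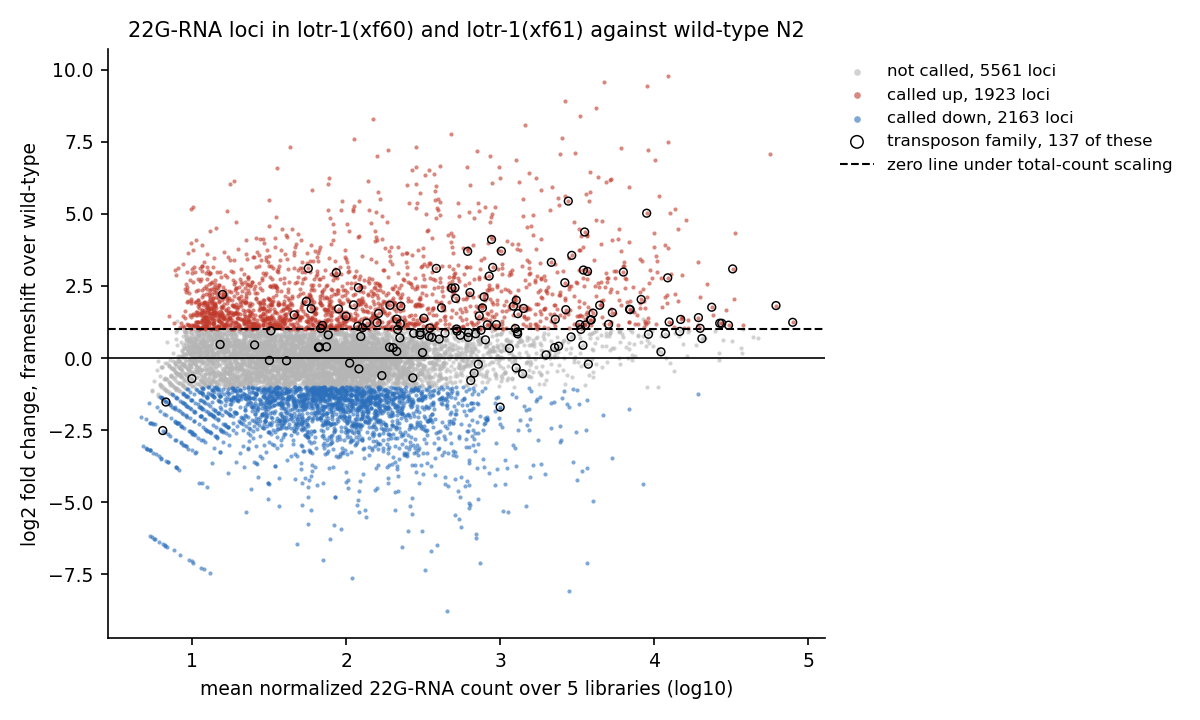
Log2 fold change of frameshift over wild-type libraries (y axis) against the mean normalized 22G-RNA count of 5 libraries (x axis, log10) for 9647 tested loci, with called loci in red (1923 up) and blue (2163 down) and the 137 transposon families ringed. The dashed line marks where 0 would lie if libraries were scaled to total counts, and the lowest points at the left are loci with 0 reads in both frameshift libraries, whose fitted value depends on the prior count.

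By class of locus, protein-coding genes split into 1657 up and 2049 down of 8878 tested, with a median log2 change of -0.05. Of 548 pseudogenes 172 were up and 91 down with TMM factors, but 74 up and 199 down with total counts, and their median of 0.38 became -0.61. Of 59 lincRNAs, 11 were up and 13 down. The exons of a called gene were slightly shorter than those of other genes: the median exon length was 1360 bases for genes called up, 1351 for genes called down and 1505 for genes not called, with widely overlapping quartiles. Genes on the X chromosome, which is largely silent in the germline, were called up at 292 of 914 (31.95%) and down at 156 (17.1%) with TMM factors. Of the 301 that averaged 100 counts or more, 91 (30.2%) were up and 64 (21.3%) down. Their median log2 change was 0.22, beside 0.40 over all 914. On chromosome III 238 were up (13.6%) and 452 down (25.8%) of 1753. With total counts 88 genes of X were up and 335 down, against 117 and 989 on III, and the median was negative on both, at -0.60 and -1.19. Differences between chromosomes were not tested.

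The strongest gains were on protein-coding genes with next to no 22G-RNAs in wild-type. Y54G2A.11, on chromosome IV from 2765715 to 2771792, had 49, 47 and 34 counts in wild-type, 22363 in xf60 and 15640 in xf61. This was the largest change of the named genes, at 878-fold (log2 9.78, SE 0.21, adjusted p 7.91e-15). The counts of fmil-1, also on IV, were 21, 20 and 16 against 7956 and 6722, a log2 change of 9.58 (SE 0.17). For crtc-1, a CREB-regulated transcription coactivator on I, they were 39, 51 and 32 against 14113 and 14204 (log2 9.43, SE 0.13). In each of these genes both frameshift libraries lay far above every wild-type library, and the change was over 8 on the log2 scale with total counts too.

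The other 5 of the 8 genes with the largest fold gain, among called genes averaging 100 counts or more, had at most 37 counts in any wild-type library. The counts of mab-10, a NAB cofactor that acts in the transition from larva to adult, were 17, 17 and 16 in wild-type, 5384 in xf60 and 2675 in xf61 (log2 8.92, SE 0.32). Those of grh-1, a Grainyhead transcription factor of epidermal cells, were 20, 18 and 12 against 2306 and 2239 (log2 8.07, SE 0.15). For dpy-1, named after the short bodies of its mutants, they were 33, 37 and 25 against 6816 and 6187 (log2 8.67, SE 0.15). The remaining pair were islo-1, with 34, 29 and 29 counts against 5063 and 5342 (log2 8.38, SE 0.13), and xdh-1, which encodes xanthine dehydrogenase, with 5, 7 and 8 against 788 and 703 (log2 7.76, SE 0.19). All 8 were called in each of 17 alternative analyses.

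**Figure D2:**
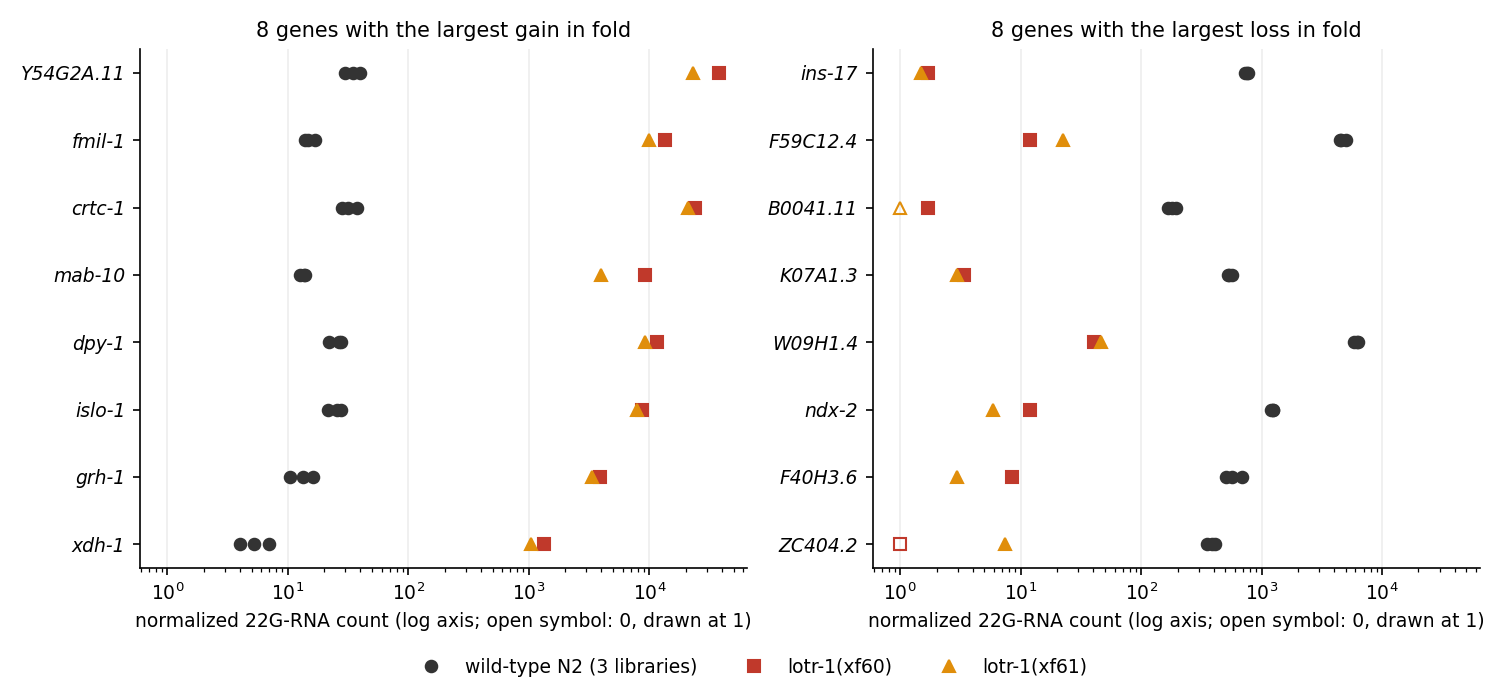
Normalized 22G-RNA counts (x axis, log scale) in each of the 5 libraries for the 8 genes with the largest gain (left) and the 8 with the largest loss (right) in fold, among called genes averaging 100 counts or more. Circles are the 3 wild-type libraries, squares xf60 and triangles xf61; in each gene the frameshift libraries lie far outside the wild-type range, above it for Y54G2A.11 (49, 47 and 34 raw counts against 22363 and 15640) and below it for ins-17 (895, 1013 and 883 against 1 and 1).

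A single gene took the largest share of the added reads. The counts of sea-2, on chromosome II from 3950377 to 3972140, were 1279, 1418 and 1183 in wild-type, 94364 in xf60 and 81486 in xf61 (136-fold, log2 7.08, SE 0.12, adjusted p 1.25e-15). SEA-2 is an autosomal signal element that takes part in counting X chromosomes against autosomes during sex determination. Together with Y20F4.4, sqst-1, znf-782, cdh-12, W05F2.4, zip-2 and R04E5.8, the 8 genes with the largest gain in reads, it went from 1.46% to 1.50% of the wild-type libraries to 7.71% of xf60 and 6.78% of xf61.

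These genes had abundant 22G-RNAs in wild-type already. Y20F4.4 had 4793, 5333 and 4328 counts in wild-type and 48781 and 48833 in the mutants (log2 4.33, SE 0.09). It lies 573 bases from crtc-1, on the opposite strand, and of these neighbours on chromosome I, crtc-1 is among the 8 named for fold and Y20F4.4 among the 8 named for reads. The counts of znf-782, which encodes a zinc finger protein, were 5243, 5829 and 4670 against 27448 and 25281 (log2 3.32, SE 0.10), and those of W05F2.4 were 1738, 1904 and 1568 against 24951 and 22886 (log2 4.78, SE 0.10). Gains were smaller for sqst-1, the receptor p62 of selective autophagy, with 18438, 19469 and 16014 against 38038 and 37714 (log2 2.07, SE 0.09), and for cdh-12, a cadherin, at a log2 change of 2.58 (SE 0.09). For zip-2, a transcription factor of the pathogen response, the counts were 18345, 21516 and 18073 against 32758 and 29224 (log2 1.68, SE 0.10). Its change was 0.67 with total counts, where it was not called.

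Other genes lost nearly all of their 22G-RNAs. The counts of ins-17, an insulin-like peptide on chromosome III from 4476918 to 4477572, were 895, 1013 and 883 in wild-type and 1 in each of xf60 and xf61. The ratio of wild-type to mutant was 471, with a 95% counting interval of 130 to 3892, which covers counting error only. F59C12.4, an annotated gene of chromosome X from 16602473 to 16602622, fell from 6262, 5995 and 5233 to 7 and 15 counts (log2 -8.06, SE 0.18, adjusted p 1.37e-14). The counts of ndx-2, a Nudix hydrolase, were 1496, 1667 and 1416 against 7 and 4 (log2 -7.11, SE 0.19). For the lincRNA F40H3.6 on II, they were 632, 765 and 783 against 5 and 2 (log2 -6.69, SE 0.28). B0041.11, K07A1.3 and ZC404.2 likewise went from between 222 and 715 counts to no more than 5 in either mutant. These mutant values are at or near the floor of 3 counts taken as the smallest signal of a library.

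Both members of an overlapping gene pair on chromosome II were among the named losses. W09H1.4, from 13183528 to 13185921, had 7630, 8448 and 6638 counts in wild-type, 24 in xf60 and 31 in xf61 (log2 -7.12, SE 0.14). W09H1.3, from 13184429 to 13185003, lies within its span on the same strand and had 6667, 7698 and 5991 against 242 and 207 (log2 -3.92, SE 0.13). Their reads may not be fully separable. The adjacent mecr-1, 65 bases away on the other strand, had 182, 203 and 185 against 20 and 14 (log2 -2.50), so the loss was not confined to that strand. The small gene his-73, a histone gene that overlaps W09H1.4 on the same strand, had 20, 21 and 22 counts against 29 and 32 and was called up with TMM factors (log2 1.51).

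The 8 genes that lost the most reads included saeg-2, Y54G11A.14 and E01G4.5. The counts of saeg-2, named as a suppressor of activated EGL-4 kinase, were 17157, 18126 and 15570 in wild-type, 299 in xf60 and 544 in xf61 (20.6-fold lower, log2 -4.37, SE 0.16, adjusted p 3.03e-12). Those of jmjc-1, which encodes a Jumonji-domain protein, were 7565, 7497 and 6704 against 245 and 278 (log2 -3.81, SE 0.11), and those of hmg-11, a high mobility group protein, 12051, 13078 and 10511 against 1321 and 2289 (log2 -1.75, SE 0.14). Y54G11A.14 went from 8262, 8215 and 7739 to 130 and 135 (log2 -4.95, SE 0.12). E01G4.5, a known target of 26G-RNAs bound by the Argonaute ERGO-1, had 9513, 11236 and 10336 counts against 484 and 455 (log2 -3.48, SE 0.12). The 8 genes with the largest loss of reads held between 2.34% and 2.48% of the wild-type libraries, 0.232% of xf60 and 0.240% of xf61.

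The pseudogene with the greatest loss of reads was WBGene00045366, on chromosome V from 18720589 to 18723771. Its counts were 28809, 33352 and 30512 in wild-type, 6793 in xf60 and 6431 in xf61 (log2 -1.24, SE 0.10). Its own share of the library fell by 0.587 percentage points, and the share of all pseudogenes went from 14.0% ± 0.0576 (SD, n = 3) to 11.05% in xf60 and 11.3% in xf61. A share is relative to the whole library, as are the changes with total counts. The share on lincRNAs went from 3.48% ± 0.0818 (SD, n = 3) to 2.19% and 2.34%, with the share of linc-22 dropped by 0.467 points and that of linc-29 dropped by 0.225. Neither was called with TMM factors: linc-22 had 47010, 49708 and 36950 counts in wild-type against 23388 and 27241, and linc-29 had 47494, 52171 and 41965 against 37086 and 39448.

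Few loci were switched fully off or on. At 14 loci each wild-type library had at least 10 counts and both mutant libraries had 0, whereas no tested locus showed the reverse. The collagen gene col-72 was one of the 14, with 26, 25 and 13 counts in wild-type, which makes it at least 3.54-fold lower against a floor of 3 counts. A further 11 loci, ins-17 among them, had 100 or more counts in each wild-type library and no more than 3 in both mutants. They included cht-2, named as a chitinase, with 115, 125 and 122 counts against 0 and 3, and the lincRNA Y48C3A.1, with 158, 152 and 127 against 1 and 0. The reverse held for Y43D4A.2 only, which had 1, 3 and 0 counts in wild-type, 215 in xf60 and 254 in xf61. These loci were chosen after their values were seen. The thresholds were set on raw counts, without TMM factors, and the reverse of the first asked for 0 in 3 libraries rather than 2. How far this favoured losses was not tested.

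Many transposon families gained 22G-RNAs relative to the typical locus. Of 137 tested families, 79 (57.7%) were called up and 3 (2.19%) down, beside 1844 up (19.4%) and 2160 down (22.7%) of 9510 tested genes, and both mutant libraries lay above all wild-type libraries at 116 families. The median log2 change over the families was 1.16, or 0.15 with total counts, where 28 were called up and 16 down. The share of all 22G-RNAs on transposons uses no TMM factors but is relative to the whole library, as are total counts. It was 10.6%, 10.3% and 10.1% in wild-type, 13.99% in xf60 and 14.3% in xf61, a difference of 3.82 percentage points. The groups did not overlap, and the exact permutation p was 0.2, the smallest that 3 against 2 libraries allow (adjusted p 0.233). A read that matched several places equally well was assigned to 1 of them at random, so related families can exchange reads, and the counts give families without positions. Terminal repeats and internal parts of 1 element are separate entries, so a count of families can hold an element more than once.

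**Figure D3:**
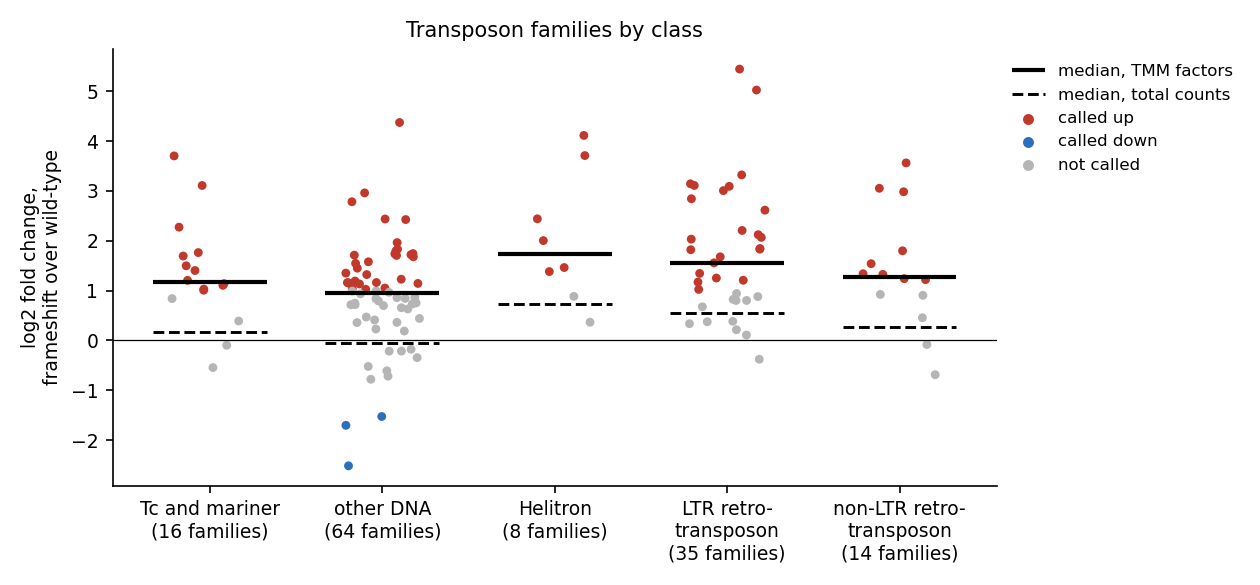
Log2 fold change of frameshift over wild-type libraries (y axis) for 137 tested transposon families, grouped by class (x axis), with families called up in red, called down in blue and not called in grey. Solid bars are class medians with TMM factors, from 0.95 for other DNA elements to 1.73 for Helitrons, and dashed bars are class medians with total counts, from -0.05 to 0.73; all 3 families called down are DNA elements.

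LTR retrotransposons, which copy themselves through an RNA intermediate, included the largest single gains. Of 35 tested LTR families, 23 were called up and 0 down, or 13 and 1 with total counts. Their median log2 change was 1.56, or 0.56 with total counts. Parts of 1 element, such as CER9-I_CE and CER9-LTR_CE, are separate entries among the 35, so these are not independent cases. The counts of CER1, a Gypsy-like element, were 183, 216 and 177 in wild-type, 1999 in xf60 and 6735 in xf61 (43.5-fold, log2 5.44, SE 0.31, adjusted p 5.13e-10). This family also differed between the alleles by more than any pair of wild-type libraries did. The terminal repeats CER16-2-LTR_CE had 831, 957 and 681 counts against 12512 and 14472 (log2 5.02, SE 0.10), and the internal part CER16-2-I_CE of the same element 10482, 11065 and 8688 against 44037 and 42244 (log2 3.09, SE 0.09). Together with CER9-I_CE, which had 39755, 42158 and 33177 against 64463 and 72373 (log2 1.82, SE 0.08), these families added the most to the share of transposons, 0.784 points from CER16-2-I_CE and 0.703 from CER9-I_CE. Not all CER elements gained: CER10-I_CE had 13698, 14083 and 11183 counts against 7291 and 7934, a log2 change of 0.22 with TMM factors and -0.79 with total counts.

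Non-LTR retrotransposons were called up at 9 of 14 families and called down at 0, or 3 and 2 with total counts. Their median was 1.28, or 0.28 with total counts. NeSL-1 was the family with the most reads, at 65454, 69131 and 57653 in wild-type, 76368 in xf60 and 76117 in xf61 (log2 1.24, SE 0.08). Its change with total counts was 0.23, so its call depends on the scaling, although its raw counts were higher in both mutants than in any wild-type library. The element LINE2C1_CE had 2180, 2293 and 1815 counts against 8151 and 8538 (log2 2.98, SE 0.09).

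Among the Tc and mariner DNA transposons, which move by excision and reinsertion, 12 of 16 families were called up and 0 down, or 3 and 2 with total counts. Their median was 1.17, or 0.17 with total counts. Tc1, the main mobile element of C. elegans, had 15425, 16251 and 13538 counts in wild-type, 24189 in xf60 and 27573 in xf61 (3.39-fold, log2 1.76, SE 0.08). Its change was 0.76 with total counts, short of the 2-fold cutoff. TC5B, at 154, 132 and 110 against 864 and 869 (log2 3.7, SE 0.12), was up under both scalings. Tc3 had 18213, 19181 and 15187 against 17218 and 18947, a log2 change of 1.03 with TMM factors and 0.03 with total counts. The abundant MARINCE1, named after its values were seen, had 11300, 11913 and 10406 against 9822 and 10462. It was not called (log2 0.84) and its direction reversed with total counts (-0.16).

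Helitrons, which replicate by a rolling circle, were called up at 6 of 8 families and down at 0, or 4 and 0 with total counts. Their median was 1.73, or 0.73 with total counts. Helitron1_CE had 144, 151 and 141 counts in wild-type, 1229 in xf60 and 1317 in xf61 (log2 4.11, SE 0.10), and HelitronY3_CE 253, 216 and 184 against 1309 and 1579 (log2 3.71, SE 0.11). The other DNA elements had 29 up, 3 down and 32 not called of 64, or 5 up and 11 down with total counts. These elements had a median of 0.95 that was -0.05 with total counts. Turmoil2, at 511, 520 and 457 against 5240 and 5108 (log2 4.37, SE 0.10), led them. Turmoil1, in contrast, had 5130, 5391 and 4291 counts against 1944 and 2371, a log2 change of -0.21 that was not called and was -1.21 with total counts. Of the 3 families called down, NPALTA1_CE had 1845, 1850 and 1484 counts against 220 and 320 (log2 -1.70, SE 0.12). The others, PAL8C_1 and PAL8C_2, had at most 16 counts in any library. The number of families called down was 1 without wild-type replicate 2, and PAL8C_1 was called in 7 of 17 alternative analyses.

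Gene lists were read against the shares over all 9647 loci, which were 19.9% up and 22.4% down, or 8.51% up and 50% down with total counts. Among the 7527 loci that passed the filter on low counts in both groups, 1551 were up and 1354 down with TMM factors. The small RNA machinery is itself a template for 22G-RNAs. Among 18 tested Argonautes, 5 were called up (27.8%) and 0 down, with a median log2 change of 0.50. With total counts 1 was up and 4 were down, and the median was -0.51. The 5 had few reads, and 1 of them passed the filter on low counts through the mutant libraries alone. For alg-2, which encodes a microRNA Argonaute, wild-type had 26, 22 and 21 counts, against 62 and 61 in the mutants (log2 2.39, SE 0.21). For its paralog alg-1 they were 73, 71 and 54 against 75 and 76 (log2 1.18, SE 0.16), which was 0.18 with total counts. vsra-1, nrde-3, a carrier of 22G-RNAs into somatic nuclei, and wago-5 were the other 3. alg-1 was called in 12 of 17 alternative analyses and nrde-3 in 8. Argonautes with more reads were not called: prg-1, which binds piRNAs, had 1910, 2112 and 1729 counts against 1253 and 1564 (log2 0.53, reversed to -0.47 with total counts), and csr-1 had 721, 763 and 646 against 478 and 473 (log2 0.41, reversed to -0.60).

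Of the 18 matched RNA-dependent RNA polymerases and Mutator factors, which make the WAGO-class 22G-RNAs, 1 was up and 4 were down (22.2%), the latter close to the share over all loci. With total counts 0 were up and 11 down. The polymerase gene rrf-2 had 1380, 1460 and 1233 counts in wild-type, 2131 in xf60 and 2862 in xf61 (log2 1.85, SE 0.09), but its change was 0.86 with total counts, where it was not called. smut-1, at 270, 266 and 271 against 15 and 17 (log2 -3.09, SE 0.18), was down, although reads can be shared with its paralog mut-14. So were rde-8, a nuclease gene, at between 95 and 126 against 9 and 11 (log2 -2.52, SE 0.29), mut-2, whose product adds UG repeats to cleaved RNA, at 153, 157 and 124 against 18 and 16 (log2 -2.1, SE 0.20), and rde-10. In the ERI pathway, which makes 26G-RNAs, eri-1 was up (log2 1.43, SE 0.11), and rde-4 and eri-9 were down (log2 -1.10 and -3.12) among 9 tested genes, of which 0 were up and 5 down with total counts. eri-6, with 20761, 23161 and 18865 counts against 16028 and 17953, was not called (log2 0.68, reversed to -0.32 with total counts).

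Genes of nuclear RNAi and of inheritance held 1 gain and 1 loss among 11 tested, or 1 and 6 with total counts. sid-1, the channel for double-stranded RNA, had 2662, 2611 and 2271 counts in wild-type, 8067 in xf60 and 8750 in xf61 (6.61-fold, log2 2.72, SE 0.09, adjusted p 5.55e-13), and nrde-1 had 265, 260 and 281 against 44 and 48 (log2 -1.57, SE 0.15). Within the germ granule list of 21 genes, 4 were up and 2 down (0 and 6 with total counts), lotr-1 being one of the 2. The gains were on meg-2, meg-3 and meg-4, which encode disordered proteins that organize P granules, and on pid-4, a gene of Z granules. The counts of meg-4 were 549, 576 and 461 against 667 and 748 (log2 1.41, SE 0.09), and those of meg-3 were 96, 113 and 103 against 166 and 186 (log2 1.74, SE 0.11). All 4 were below 2-fold with total counts. pgl-2, a P granule gene, was down with 256, 252 and 216 against 18 and 16 (log2 -2.84, SE 0.18). znfx-1, whose product defines Z granules, had 1472, 1618 and 1441 counts against 515 and 592 and was not called (log2 -0.47, or -1.47 with total counts), nor was the P granule helicase gene glh-1 (log2 -0.79).

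Of 18 genes of germline sex and fate 1 was up and 5 were down (27.8%, beside 22.4% of all loci), or 0 and 10 with total counts. The genes that fell were tra-2, which promotes female fate, and fem-1, fem-2, fem-3 and fog-1, which promote male or sperm fate. The counts of fem-1 were 356, 377 and 333 in wild-type, 28 in xf60 and 30 in xf61 (6.19-fold lower, log2 -2.63, SE 0.14, adjusted p 2.19e-10), and those of tra-2 were 428, 475 and 347 against 62 and 87 (log2 -1.50, SE 0.13). nos-1 was up. The Notch receptor gene glp-1 lay just inside the cutoff at -0.98 and was not called. Meiotic axis and synapsis genes showed 1 gain and 1 loss of 18 (0 and 5 with total counts), zim-1 and him-8, which encode zinc finger proteins of chromosome pairing centres. Of 18 cell cycle and spindle genes 0 were up and 2 down (0 and 6 with total counts), cye-1 for cyclin E (310, 367 and 324 against 41 and 58, log2 -1.77, SE 0.14) and air-1 for an Aurora kinase. In both lists 16 members were not called.

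**Figure D4:**
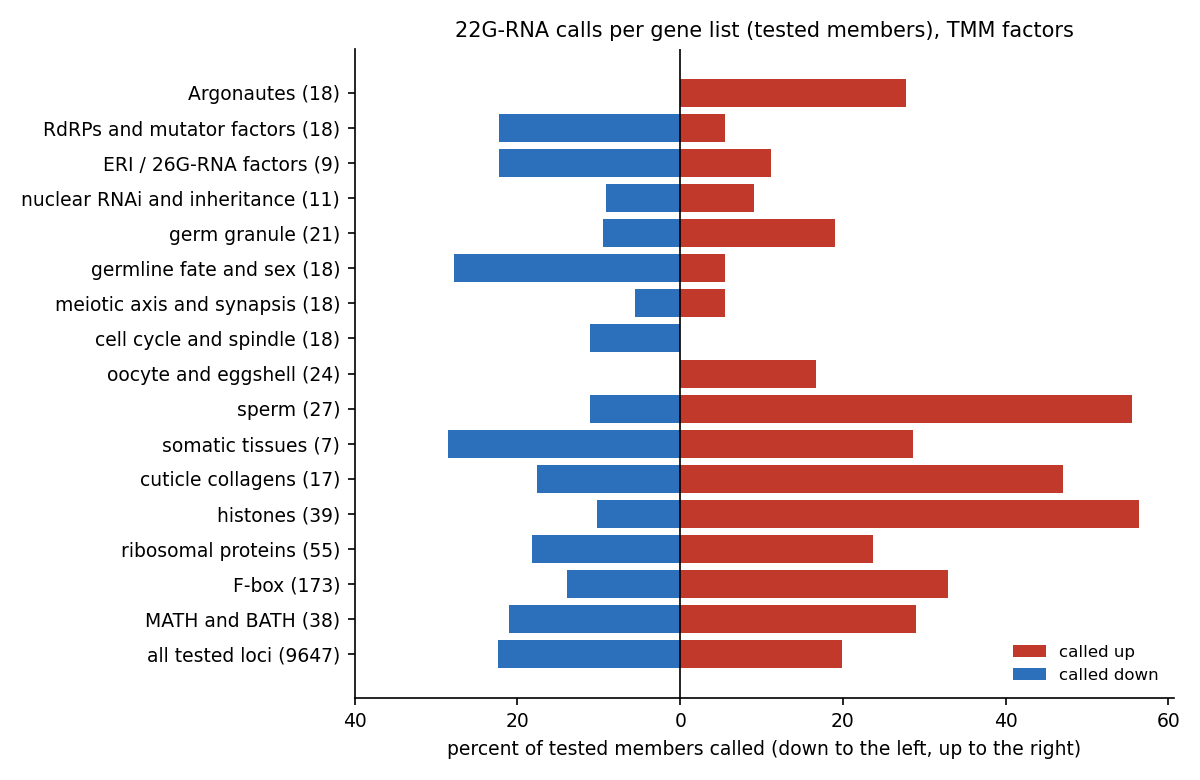
Percent of tested members called up (red, to the right) and called down (blue, to the left) in each of 16 gene lists with TMM factors, with the number tested in brackets and all 9647 tested loci (19.9% up and 22.4% down) as the last bar. Histones reach 56.4% up and sperm genes 55.6% up, where 6 of 22 and 10 of 15 up calls passed the filter on low counts through the mutant libraries alone, and germline fate and sex genes 27.8% down; with total counts the median change of the histones is 0.05 and that of germline fate genes -1.04.

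Sperm genes had few 22G-RNAs, and of 75 genes in the list 27 had enough reads to be tested. Of these 15 were up and 3 down, or 11 and 6 with total counts. The filter on low counts fixed much of this: 10 of the 15 passed it through the mutant libraries alone, and 2 of the 3 through wild-type alone. Of the 10 that passed it in both groups, 3 were up and 1 was down. The major sperm protein genes accounted for 12 of the gains, of 14 tested, but their counts were between 2 and 40 per gene and library, and 8 passed the filter through the mutant libraries alone. Summed over 31 msp genes, the counts were 186, 173 and 108 in wild-type, 250 in xf60 and 327 in xf61. Their sequences are nearly the same, so they share reads, and they are not independent cases. Counts were larger for spe-41, a calcium channel of sperm, with 207, 253 and 181 against 682 and 704 (log2 2.69, SE 0.11). In the other direction, spe-47 had 691, 748 and 518 against 25 and 42 (log2 -3.30, SE 0.17), and spe-44, a transcription factor of sperm genes, and fer-1 also fell. Counted without the msp genes, the list held 3 gains and 3 losses among 13 tested. All tested members together held between 0.0352% and 0.0402% of the wild-type libraries and 0.0320% and 0.0302% of xf60 and xf61.

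Of 24 oocyte and eggshell genes, 4 were up (16.7%) and 0 down, or 2 and 8 with total counts, and their median of 0.52 became -0.48. puf-6 and puf-7, near-identical genes for RNA-binding proteins of oocytes, had 202, 217 and 161 against 601 and 631 (log2 2.66, SE 0.11) and 142, 123 and 111 against 354 and 357 (log2 2.49, SE 0.12). The others, nos-2 and cpg-2, had at most 42 counts in any library. In the list of 20 genes of somatic tissues, 7 had enough reads, with 2 up and 2 down, or 1 and 3 with total counts. The neuronal gene rab-3, which encodes a synaptic vesicle GTPase, had 109, 117 and 93 counts in wild-type, 0 in xf60 and 3 in xf61, a ratio of 35.9 with a 95% counting interval of 12.2 to 175. unc-54, the myosin of body wall muscle, had 47, 57 and 39 against 2 and 5 (log2 -2.76, SE 0.40). The yolk protein genes vit-1 and vit-6 rose, on at most 36 counts. Summed, the 7 genes held between 0.0119% and 0.0129% of the wild-type libraries, 0.00597% of xf60 and 0.00526% of xf61. 22G-RNA counts do not measure the messenger RNA of a tissue, and whether the makeup of tissues differed was not tested.

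Larger gene families were changed in both directions. Among cuticle collagens 17 of 156 were tested, 8 up and 3 down. With total counts the balance turned to 6 up and 7 down, and the median went from 0.64 to -0.35. Of the 12 that passed the filter on low counts in both groups, 6 were up and 2 down with TMM factors. col-71 had 3460, 3964 and 3487 counts in wild-type, 13310 in xf60 and 11546 in xf61 (log2 2.77, SE 0.11), col-68 had 9, 8 and 9 against 421 and 404 (log2 6.54, SE 0.16), and col-111 fell from 1405, 1437 and 1248 to 115 and 58 (log2 -2.98, SE 0.21), although its change was 0.51 where xf58 was added to the mutants. Histone genes rose at 22 and fell at 4 of 39 tested. Of the 22, 6 passed the filter on low counts through the mutant libraries alone, and of the 25 that passed it in both groups 14 were up and 3 down. The median of those tested was 1.04 but 0.05 with total counts, where 4 were up and 6 down. The most abundant were linker histone genes near the cutoff: hil-8 had 14210, 14755 and 12430 counts against 13892 and 14742, a log2 change of 1.04 with TMM factors and 0.03 with total counts. Core histone genes are near-identical copies that share reads. Of 55 ribosomal protein genes 13 were up (23.6%) and 10 down (18.2%), or 3 and 24 with total counts. Many of the calls rest on few reads. Among them were rps-30, up from 5, 8 and 8 counts to 19 and 15, and rps-17, down from 9, 11 and 19 to 3 and 1. How many passed the filter on low counts through a single group was not counted for this list.

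F-box genes, a family of ubiquitin ligase adaptors that has expanded in nematodes, were up at 57 (32.95%) and down at 24 (13.9%) of 173 tested. With total counts 20 were up and 64 down, and the median of 0.39 became -0.61. With TMM factors, 8 of the 57 passed the filter on low counts through the mutant libraries alone, and 15 of the 24 through wild-type alone. Of the 128 that passed it in both groups, 48 were up and 9 down. fbxb genes were up at 30 and down at 4 of 73 (12 and 17 with total counts), and fbxa genes up at 19 and down at 18 of 76 (5 and 39 with total counts). The difference between these subfamilies was not tested. The F-box gene with the most reads was fbxa-218, with 10202, 11928 and 9830 counts in wild-type, 24030 in xf60 and 21899 in xf61 (log2 2.1, SE 0.10). A larger fold gain was seen at fbxa-192, named after its values were seen, from 121, 145 and 109 to 879 and 879 (log2 3.80, SE 0.11). The paper places the transposon Turmoil2 in an intron of fbxa-192, so this gain and that of Turmoil2 may not be separate cases. Whether they are linked was not tested. BATH and MATH genes, another expanded family of adaptors, held 11 up (28.9%) and 8 down (21.1%) of 38, or 2 and 16 with total counts. Of the 35 that passed the filter on low counts in both groups, 11 were up and 7 down with TMM factors. On chromosome II, bath-10 rose from 934, 1031 and 873 to 1419 and 1893 (log2 1.78, SE 0.09) and bath-24 fell from 2585, 2472 and 2195 to 564 and 616 (log2 -1.05, SE 0.10).

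The 2 alleles gave much the same picture. Of the 4086 called loci, 3412 (83.5%) differed over 2-fold from wild-type, and the same way, in each of xf60 and xf61 taken singly, 1613 of the 1923 up and 1799 of the 2163 down. The loci were called on these same libraries, so part of this agreement was set by how they were chosen. Of 4000 loci averaging 100 counts or more, xf60 and xf61 were more than 2-fold apart at 75 (1.88%), with xf60 higher at 35 and xf61 higher at 40, and more than 4-fold apart at 15. Pairs of wild-type libraries were more than 2-fold apart at no more than 2 of these loci. The median absolute log2 difference was 0.186 between the alleles and 0.0876 to 0.102 between wild-type libraries, and the common dispersion was 0.0251 over the mutants and 0.00181 over wild-type. Allele and library cannot be told apart here.

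**Figure D5:**
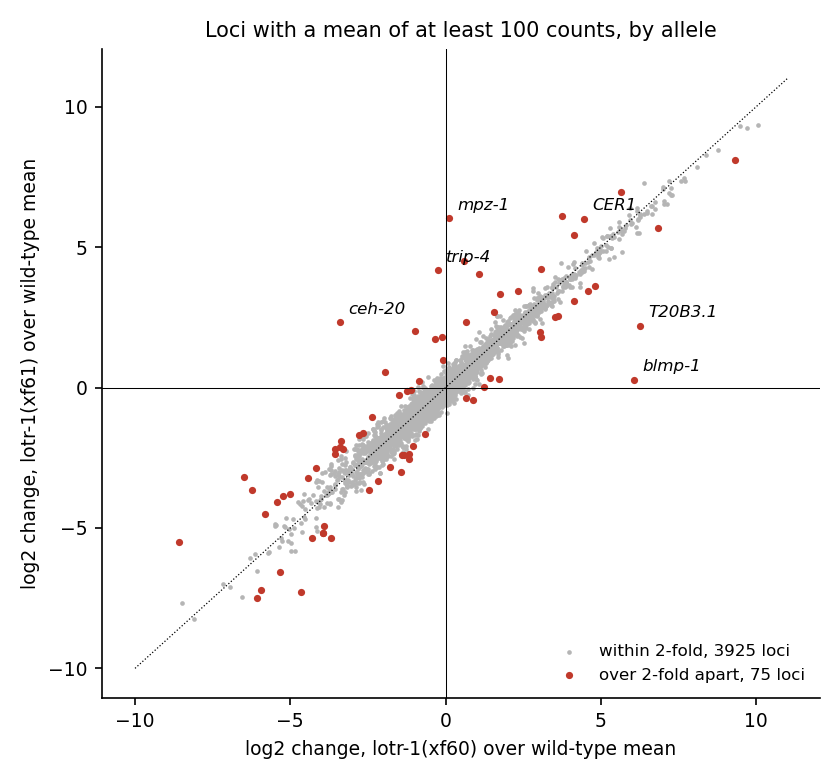
Log2 change against the wild-type mean in xf61 (y axis) and in xf60 (x axis) for 4000 loci averaging 100 counts or more, one point per locus, with a dotted line of equality. The 75 loci in red are more than 2-fold apart; ceh-20, mpz-1, blmp-1, trip-4, T20B3.1 and CER1 are named, and ceh-20 lies in the upper left, lower in xf60 and higher in xf61.

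Single genes nonetheless differed greatly between the alleles. The counts of ceh-20, a Pbx-type homeodomain transcription factor gene on chromosome III, were 6625, 7202 and 5898 in wild-type, 293 in xf60 and 17742 in xf61, so it lay far below wild-type in one allele and above it in the other. It was not called in the joint test (log2 1.35, SE 0.77, adjusted p 0.138). The counts of mpz-1, which encodes a protein with many PDZ domains, were 61, 60 and 45 in wild-type, 28 in xf60 and 1985 in xf61. blmp-1, a gene for a Blimp-type zinc finger factor, showed the opposite, with 34, 36 and 30 in wild-type, 1100 in xf60 and 22 in xf61. T20B3.1 likewise had 39, 68 and 49 against 1928 and 132, and trip-4 had 38, 51 and 41 against 17 and 438. All of these but ceh-20 were called up although mpz-1, blmp-1 and trip-4 rest on 1 library each: without xf61 the log2 change of mpz-1 was 0.09 and that of trip-4 -0.28, and without xf60 that of blmp-1 was 0.27. These genes were chosen after their values were seen.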

How the data were processed

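Small RNA libraries of gravid adults were made from 3 wild-type N2 samples and from 1 sample of each lotr-1 allele, and the frameshift alleles xf60 and xf61 were treated as 2 replicates of 1 group. Per the methods, the authors used cutadapt 2.4 for trimming and Bowtie 1.2.2 for alignment to WBcel235, which reported 1 random location among equally good ones, and counted 22G-RNAs with featureCounts 1.6.2 on Ensembl 96 genes and RepeatMasker families. They deposited these counts per locus as whole numbers without normalization. Strand was used in the counting, and how far overlapping genes were separated is not given in the sources used here.

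From these counts, TMM factors, filterByExpr and the quasi-likelihood test of edgeR 4.0.16 were run in R 4.3.3 on the 5 libraries, with Benjamini-Hochberg adjustment over all 9647 tested loci. The cutoffs follow the study's methods. For normalized counts, each library was brought to the mean of the TMM-scaled library sizes. The SE of a log2 fold change was taken from the change and the F statistic of its test. Changes of a single allele used a prior count of 1. Intervals and the floor of 3 counts cover counting error only, and the methods give no step that counts molecules rather than PCR reads. Gene positions and types are from Ensembl 115, where 22014 of 22185 genes were found. Shares were compared with exact permutation tests (scipy 1.17.1). Plots used matplotlib 3.10.9.

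The fits were tried on simulated counts at the depths of these libraries, with few changed loci, as many up as down. The simulated libraries had 1 common spread and no shift in composition. They therefore cannot show how the fits behave under the unequal spread and composition of these data. Alternatives were the size factors and both Wald tests of DESeq2 1.42.0, total counts, TMM factors from genes alone, no filter or a mean of 10 counts, a test against a 2-fold change, an adjusted p of 0.05, no fold cutoff, a replicate block, xf58 added to the mutants, and leaving out each library. Replicate numbers were checked for pairing, but with 2 frameshift libraries of different alleles the check cannot decide it.

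The libraries, gene lists and tests were chosen with earlier results of these data known. Loci were named by rule: lotr-1; among called loci averaging 100 counts whose groups do not overlap, the 8 genes that rose most and the 8 that fell most in fold, the 8 with the largest gain and the 8 with the largest loss in reads, the 6 transposon families with the largest change and the 4 with the largest gain; every family called down; and up to 4 called members of each list. Other loci were named after their values were seen. The mutator list's mut-8 was not matched.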

Additional observations from a re-analysis of the deposited data

Results flagged for a closer look

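At 7 loci the libraries of xf60 and xf61 both differed from the wild-type mean by over 2-fold, but in opposite directions. This difference between alleles was not tested, since each allele has 1 library. The locus with the most reads was ceh-20, at 6625, 7202 and 5898 counts in wild-type, 293 in xf60 and 17742 in xf61. The other 6, C35C5.10, mnr-1, cest-33, K01A2.5, Y41D4B.14 and Y37A1A.4, had at most 19 counts in any of the 5 libraries.

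The xf58 library was used only in the alternative with all 3 alleles as the mutant group. Of the 4086 loci called in the frameshift alleles, 3470 had an xf58 share of the library outside the range of the wild-type libraries and on the same side as the call. The loci called up held 52.97% of the xf58 library, against 65.7% and 63.8% in xf60 and xf61, and those called down held 6.72%, against 2.17% and 2.36%. The wild-type libraries are the ones used for the calls, so the comparison is not independent of them.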

How the results depend on the processing

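The count of 4086 called loci lay between 3073 and 5641 in all but 2 of the 17 alternatives, the exceptions being DESeq2's Wald test against a 2-fold change (1997 loci, 1059 up and 938 down) and no fold cutoff (6781, of which 3300 up and 3481 down). Total counts gave 821 up and 4820 down, and for transposon families 28 up and 16 down. Families called down numbered 12 without the fold cutoff and 1 with a mean of 10 counts, with DESeq2's test against a 2-fold change and with all 3 alleles as the mutant group. Leaving out 1 library gave 3996 to 4240 calls, 76 to 83 families up and 1 (without wild-type replicate 2) to 4 families down (without xf61), and 3334 of the 4086 loci were called the same way in all 5 such fits. A lone frameshift library was then assumed to vary like wild-type. The replicate block gave 4074 calls, 3949 of them shared. Libraries of the same number correlated at 0.0135 and -0.0467 in their deviations from the group mean. With 2 frameshift libraries, the deviations of xf60 and xf61 mirror each other. These values therefore cannot show whether the numbers pair the libraries. Of 134 named loci under all alternatives, 2270 values in all, 8 values reversed. With total counts the log2 change was -0.32 for eri-6, -0.47 for prg-1, -0.60 for csr-1 and -0.16 for MARINCE1. With all 3 alleles col-111 was at 0.51. For ceh-20 the change was -0.43 with the block and lay between -3.41 (without xf61) and 2.30 (without xf60), and for trip-4 between -0.28 and 4.20, in the same order. A further 140 values no longer passed the cutoffs, 39 of them with total counts, and 17 newly passed them. The cause was not tested, beyond what each alternative's construction sets. Depth limits loci near the floor of 3 counts, where losses in fold have wide intervals.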
